A study of Mus musculus with 6 samples.

Results

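The genes described here are 47 mouse genes of the lysosome: its proteases, glycosidases and lipid enzymes, membrane proteins, the subunits of its proton pump, and 3 transcription factors that act on them. They were taken from a list by gene symbol, chosen with earlier results of these data known. All 47 were found among the 53090 genes of each deposited table. Both groups were Ly6G-selected cells, Ly6G being a surface protein of mouse neutrophils, from mice kept for 1 week on a diet with DDC (3,5-diethoxycarbonyl-1,4-dihydrocollidine), an agent known to damage bile ducts. One group of 3 libraries came from liver and the other group of 3 from blood. Liver cells were first passed over a Percoll gradient and blood was first lysed, so this preparation step cannot be told apart from the tissue of origin. No mice without DDC are part of this comparison, and the sources used here do not give the strain, age or sex of the mice. The question is which lysosomal transcripts differed between the cells recovered from the injured organ and those in the circulation.

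Lysosomes are acidic organelles in which acid hydrolases break down proteins, sugar chains and lipids. The vacuolar ATPase (V-ATPase) acidifies them: its cytosolic V1 sector splits ATP, and its membrane V0 sector passes protons inward. The transcription factors Tfeb, Tfe3 and Mitf bind a DNA element around the letters CACGTG in promoters of many of these genes, and their entry into the nucleus is controlled by phosphorylation rather than by transcript level alone. In neutrophils, acid hydrolases are packed in azurophil granules during development, and cathepsin C activates the serine proteases stored there.

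Of the 47 genes, 23 (48.9%) were higher in liver and 3 (6.38%) were lower, at an adjusted p under 0.05 in edgeR's quasi-likelihood test. Of the 23, Atp6v0d2 entered the test only through the liver libraries, where it was high. Over all 13458 genes tested, 31.6% were called in either direction, 17.4% higher and 14.2% lower. The median log2 difference, liver minus blood, was 0.766 over the 47 genes and 0.0413 over all genes tested. Every liver library was above every blood library for 31 of the 47, and every liver library was below every blood library for 4. The same held for 25.8% and 22.7% of all genes tested. Levels here are in CPM, each gene's count divided by the library's total and scaled by the trimmed mean of M-values so that libraries can be compared. Summed over the 47 genes they were 11400, 13080 and 10200 CPM in liver libraries 1 to 3 and 6907, 8173 and 6446 CPM in blood libraries 1 to 3. The means were 11560 ± 1450 and 7175 ± 894 CPM (SD, n = 3 each), a ratio of 1.61. Without liver library 1, 1 gene was called lower, and without liver library 3 and blood library 1 together 15 were called higher and 1 lower. Over all genes tested, 2336 were called higher and 1916 lower with all libraries. The first of these fits called 1732 higher and 1323 lower of 14110, and the second 1631 higher and 1195 lower of 13689. In bulk RNA, fewer cells of a type and less RNA per cell cannot be told apart.

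**Figure D1:**
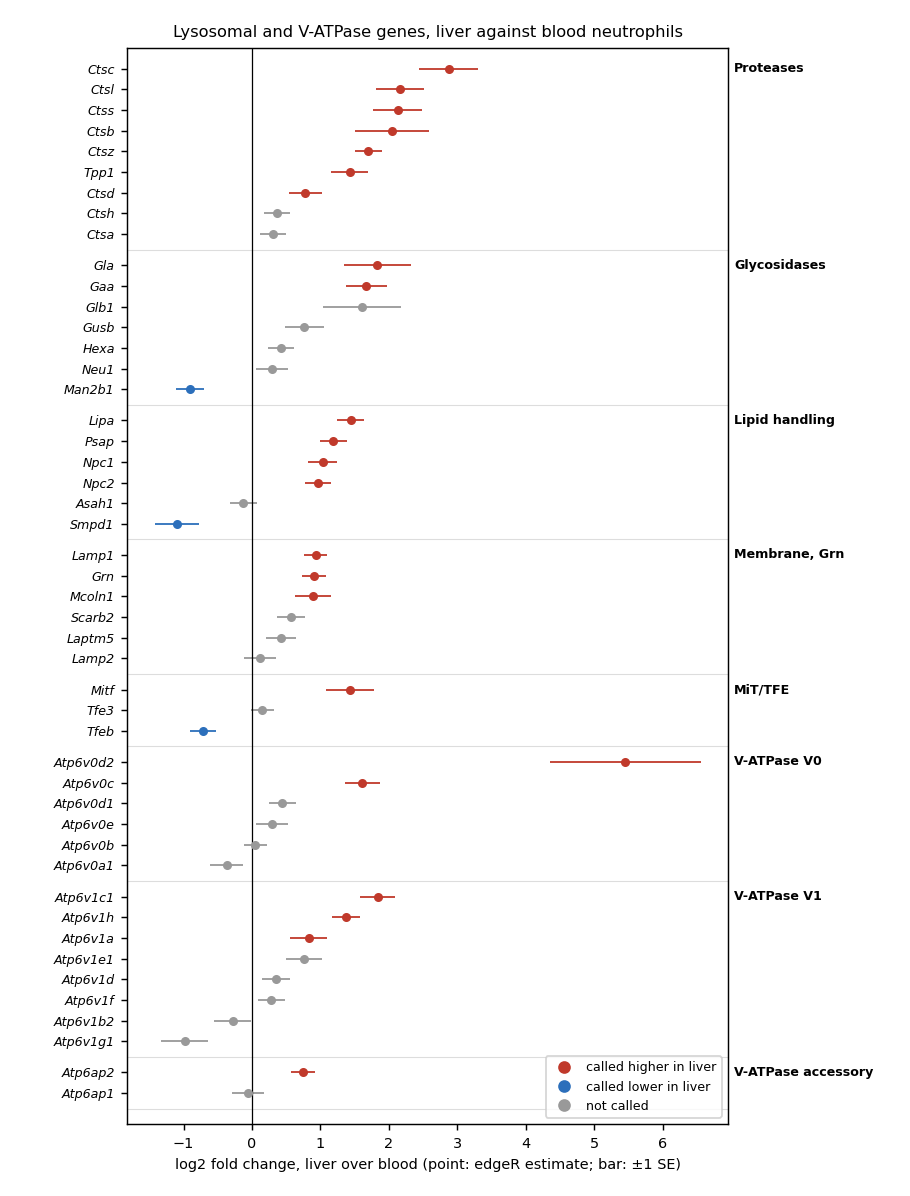
Log2 difference between liver and blood for each of the 47 genes, grouped by role, with points for the edgeR estimate and bars for ±1 SE. Most proteases lie above 1, Man2b1, Smpd1 and Tfeb are the genes called lower, and the point for Atp6v0d2 rests on 3 counts in blood.

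The 6 libraries held 13054673 to 17579669 counts each, and 3 counts correspond to 0.181 to 0.263 CPM, a limit that covers counting error only. The neutrophil genes were abundant in both groups, but 10 of 14 neutrophil markers were lower in liver and none was higher, with summed levels of 9445 to 16160 CPM in liver and 25670 to 37350 CPM in blood. Ly6g itself was at 11.9, 8.79 and 4.50 CPM in liver and 23.6, 45.7 and 21.3 CPM in blood. Some markers of macrophages and monocytes, cells rich in lysosomes, moved the other way. The part of these cells in the results on the 47 genes was not tested. Of 13 Kupffer cell markers tested (of 14 listed), 5 were higher in liver, 1 was lower and 7 were not called. Summed without the iron exporter Slc40a1, they stood at 274, 192 and 508 CPM in liver and 188, 56.3 and 41.0 CPM in blood; with it, they stood at 519, 471 and 818 CPM in liver and 882, 763 and 815 CPM in blood. Of the 14, the numbers at 0 counts were 1, 3 and 10 in blood libraries 1, 2 and 3, and none were at 0 in liver. Clec4f, which marks Kupffer cells, was at 17.0, 5.12 and 59.8 CPM in liver and at 0.359, 0 and 0 CPM in blood. C1qa, which was not called, overlapped, at 16.4, 16.6 and 26.2 CPM in liver and 16.5, 0.613 and 0 CPM in blood. Of 10 monocyte markers 6 were higher in liver and 4 were not called, with sums of 1333 to 1989 CPM against 555 to 755 CPM. Of 8 dendritic cell markers 4 were higher in liver, with sums of 212 to 255 CPM against 125 to 158 CPM. Of 7 endothelial markers tested 6 were higher, with sums of 216 to 254 CPM against 68.0 to 115 CPM. Of 6 hepatocyte markers tested 5 were higher, with sums of 17.2, 134 and 236 CPM in liver against 0.263 to 6.11 CPM in blood. Several called Kupffer, dendritic, endothelial and hepatocyte markers, Clec4f among them, had fewer than 10 counts in every blood library. Others fell below 10 counts in some blood libraries, such as Marco at 23, 0 and 0 counts and Alb at 34, 1 and 7. All of these markers, with each of the 5 called hepatocyte markers among them, entered the test only because of the liver libraries. Their calls are descriptions. Of 7 platelet markers tested 4 were lower in liver, with sums of 10.3 to 20.8 CPM against 41.8 to 315 CPM. Of 8 erythroid markers none was called, and their sums spread widely, at 2090, 2756 and 150 CPM in liver and 34090, 14940 and 377 CPM in blood. Mitochondrial transcripts made up 9.0% to 12.5% of counts in liver and 4.3% to 6.69% in blood.

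Promoter sequence was searched because Tfeb, Tfe3 and Mitf are themselves among the 47 genes. RefSeq promoters of GRCm38.p6, from 250 bases before to 50 bases after the start, matched 38 of the 47 genes. A pair of motifs that read the same on both strands were counted: CACGTG, and TCACGTGA, which contains it and forms the centre of the lysosomal CLEAR element. CACGTG was present in 12 of the 38 promoters (31.6%), in 12.0% of the 9107 promoters of genes tested and in 8.09% of all 27025 genes with a promoter. TCACGTGA was present in 7 of the 38 (18.4%), those of Ctsa, Ctsd, Gla, Mcoln1, Atp6v0d1, Atp6v0e and Atp6v1a, in 2.33% of the tested genes and in 1.12% of all. By call, it was found for 4 of 18 genes higher in liver, 3 of 17 not called and 0 of 3 lower. The stretches below are shown because they hold these motifs, in capitals, in genes described in the following paragraphs; Ctsa, the last of them, was not called. They read 5′ to 3′ along the gene's strand.
Gla, chrX:134601215-134601244, minus strand, first of 2 matches: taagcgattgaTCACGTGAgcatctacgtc
Ctsd, chr7:142387908-142387937, minus strand: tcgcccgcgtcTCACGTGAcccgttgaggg
Mcoln1, chr8:3500462-3500491, plus strand: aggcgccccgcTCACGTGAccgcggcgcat
Atp6v1a, chr16:44139359-44139416, minus strand: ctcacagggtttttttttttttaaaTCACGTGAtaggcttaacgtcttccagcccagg
Lamp1, chr8:13159075-13159160, plus strand: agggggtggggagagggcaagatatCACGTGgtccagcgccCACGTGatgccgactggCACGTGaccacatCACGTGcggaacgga
Ctsa, chr2:164833749-164833772, plus strand: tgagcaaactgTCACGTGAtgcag
The Lamp1 stretch ends at the base before the gene's start and holds the shorter motif 4 times and the longer one 0 times. In the GENCODE M21 annotation the Gla stretch also overlaps the first exon of the neighbouring gene Hnrnph2, the Ctsd, Mcoln1 and Ctsa stretches overlap a first exon of a longer transcript of the gene, and the other 2 overlap no exon.

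The proteases had the largest median of the roles described here. Of 9, 7 were higher in liver and none was lower, the median log2 difference was 1.70, and 8 had every liver library above every blood library. Ctsc, which encodes cathepsin C (chr7:88278085-88310888), was at 78.4, 97.9 and 92.9 CPM in liver and 15.1, 17.1 and 4.63 CPM in blood. Its lowest liver library was well above its highest blood library, and the means of 89.8 ± 10.2 and 12.3 ± 6.69 CPM (SD, n = 3 each) differed 7.34-fold (log2 2.87 ± 0.43 SE, adjusted p = 0.00233). Ctss, cathepsin S, which trims the invariant chain of MHC class II, was at 504, 409 and 527 CPM in liver and 139, 138 and 51.7 CPM in blood. The groups did not overlap, and the difference was 4.38-fold (log2 2.13 ± 0.36 SE, adjusted p = 0.00283). Ctsl, a broad endopeptidase, was at 63.8, 69.6 and 48.3 CPM in liver and 10.6, 21.5 and 8.59 CPM in blood. It was 4.48-fold higher in liver (log2 2.16 ± 0.35 SE, adjusted p = 0.00216), again with no overlap.

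Ctsb, cathepsin B, was at 696, 1255 and 657 CPM in liver and 183, 366 and 80.4 CPM in blood. Both groups spread widely, with library 2 the highest of each, and the 4.15-fold difference had an adjusted p of 0.0253 (log2 2.05 ± 0.54 SE). Without liver library 1, 2 or 3, or blood library 1, its adjusted p was 0.052 to 0.0758, and without blood library 2 its log2 difference was 2.70. Ctsz, an exopeptidase, was at 193, 216 and 175 CPM in liver and 60.6, 69.6 and 49.8 CPM in blood. Its libraries lay close together within each group, and it was 3.24-fold higher (log2 1.70 ± 0.20 SE, adjusted p = 0.000538). Tpp1, a tripeptidyl peptidase whose loss causes a neuronal storage disease, was at 68.9, 93.8 and 54.9 CPM in liver and 24.9, 35.2 and 20.9 CPM in blood. It was 2.69-fold higher (adjusted p = 0.00438) with no overlap. Ctsd, the aspartic protease cathepsin D (chr7:142375911-142388038), whose promoter stretch is printed above, was at 1584, 1874 and 1242 CPM in liver and 785, 1124 and 824 CPM in blood. Its groups lay close but did not overlap, and it was 1.72-fold higher (log2 0.78 ± 0.25 SE, adjusted p = 0.0372). That call was lost without liver library 1 or 2, or blood library 1 or 3 (adjusted p 0.0934 to 0.155). Ctsh and Ctsa did not pass the test, at log2 differences of 0.37 (adjusted p = 0.159) and 0.31 (adjusted p = 0.253), although the 3 liver libraries of Ctsh were all above its blood libraries.

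Levels of different genes were set side by side per kilobase of exon, the length being the union of all annotated exons of a gene. That union can be longer than the main transcript, so orders between genes may depend on this choice. On this scale Ctsd was the most abundant of the 47 genes, at 666 CPM per kilobase in liver and 387 in blood. In liver it was followed by Psap, Laptm5 and Ctss, at 579, 359 and 353, which stood at 254, 267 and 80.7 in blood. In blood Laptm5 was thus above Psap, and Atp6v1g1 and Atp6ap1, at 149 and 88.8, were above Ctss. The ratio of Ctsb to Ctsd on that scale was 0.171, 0.26 and 0.206 in liver and 0.0906, 0.126 and 0.0379 in blood, so the order of the 2 cathepsins was the same in all 6 libraries while their ratio did not overlap between the groups.

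**Figure D2:**
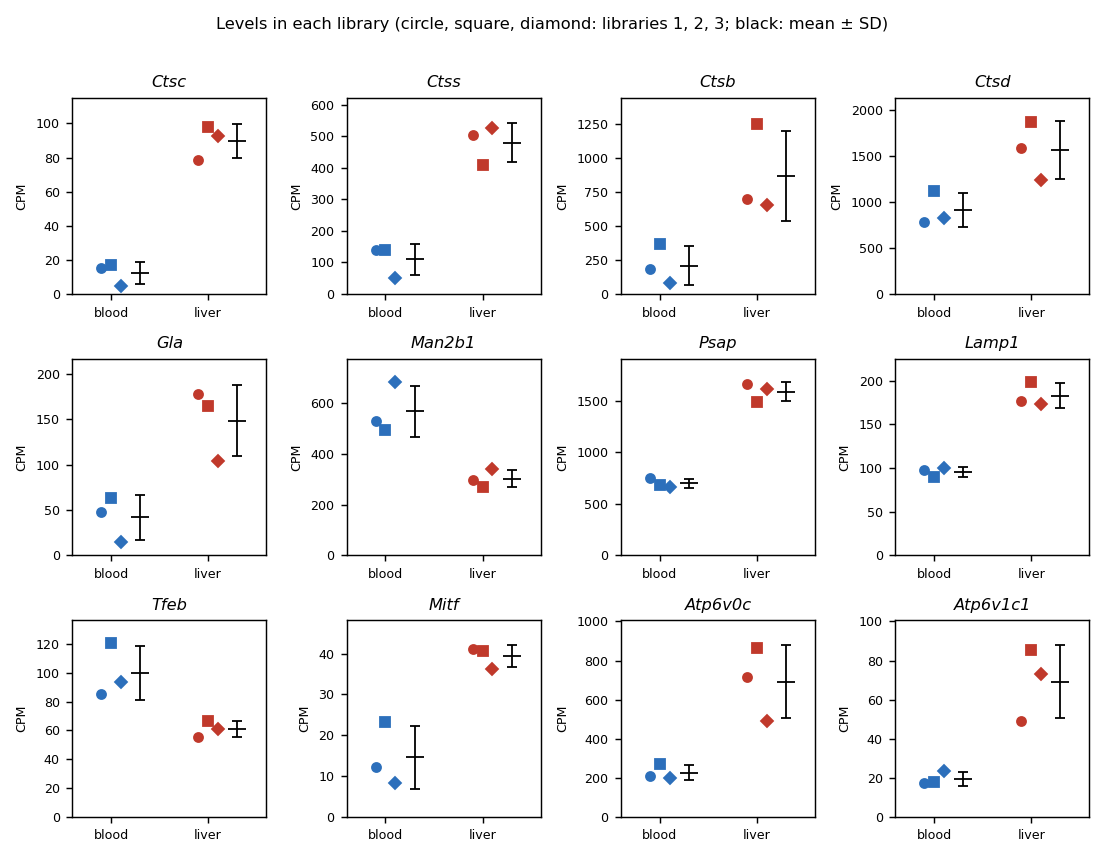
CPM in each library for 12 of the genes, with circles, squares and diamonds for libraries 1, 2 and 3 and black marks for the mean ± SD of each group. The 12 were picked from the genes called, and none of them overlaps between the groups. Man2b1 and Tfeb are the panels in which blood is higher. Of all 47 genes, 31 had every liver library above and 4 every liver library below every blood library, against 25.8% and 22.7% of all genes tested.

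The glycosidases were mixed. Of 7, 2 were higher in liver and 1 was lower, with a median log2 difference of 0.765. Their summed level was nearly the same in both groups, with a ratio of 0.933. The largest part of that sum was Man2b1, the gene lower in liver, at 302.6 of 818 CPM in liver and 568.3 of 876.7 CPM in blood. Gla, alpha-galactosidase A, which lacks activity in Fabry disease (chrX:134588149-134601125), was at 177, 164 and 104 CPM in liver and 47.3, 63.0 and 14.8 CPM in blood. It was 3.56-fold higher (log2 1.83 ± 0.49 SE, adjusted p = 0.0269), without overlap. The call was lost without liver library 1 or 2, or blood library 1 (adjusted p 0.0543 to 0.0834). Gaa, the acid alpha-glucosidase that degrades glycogen, was at 25.5, 24.3 and 29.7 CPM in liver and 9.42, 5.35 and 10.1 CPM in blood. It was 3.18-fold higher (log2 1.67 ± 0.30 SE, adjusted p = 0.00335) and was called without each library in turn.

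Man2b1, lysosomal alpha-mannosidase, ran against these genes, at 298, 271 and 339 CPM in liver and 528, 494 and 683 CPM in blood. Every blood library was above every liver library, and it was 1.88-fold lower in liver (log2 -0.91 ± 0.21 SE, adjusted p = 0.00984). It was called lower in each of the 18 alternative analyses. Per kilobase of exon it was the most abundant of the 7 in blood, at 70.8 CPM per kilobase, while in liver, at 37.7, it stood below Hexa, Neu1 and Gla, at 53.8, 49.5 and 45.5. Glb1, beta-galactosidase, was low throughout, at 3.33, 1.63 and 4.50 CPM in liver and 1.08, 0.701 and 1.28 CPM in blood. The groups did not overlap, but its log2 difference of 1.61 had an adjusted p of 0.0553. Gusb, beta-glucuronidase, was at 41.5, 36.3 and 57.1 CPM in liver and 24.9, 18.3 and 36.1 CPM in blood. Its log2 difference was 0.77 (adjusted p = 0.0675); with the replicate number as a block it was 0.794 (adjusted p = 0.0121), the change being one of call and not of size. Hexa and Neu1, a hexosaminidase subunit and a sialidase, were at log2 differences of 0.43 (adjusted p = 0.124) and 0.29 (adjusted p = 0.376).

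Among 6 genes of lipid breakdown and export, 4 were higher in liver and 1 was lower. Their summed level differed 2.12-fold, but most of that sum was Psap, at 1589 of 1965 CPM in liver and 697 of 928 CPM in blood. Lipa, the acid lipase that frees cholesterol and fatty acids from lipoproteins, was at 107, 114 and 128 CPM in liver and 46.4, 47.1 and 35.1 CPM in blood. The libraries of each group lay close together, and it was 2.71-fold higher (log2 1.44 ± 0.19 SE, adjusted p = 0.000966). Psap, the precursor of the saposins that present sphingolipids to their hydrolases, was at 1662, 1488 and 1616 CPM in liver and 750, 678 and 664 CPM in blood. It was 2.28-fold higher with no overlap (log2 1.19 ± 0.20 SE, adjusted p = 0.00256). Npc1 and Npc2, which pass cholesterol out of the lysosome in turn, were 2.05-fold (adjusted p = 0.00642) and 1.96-fold (adjusted p = 0.00522) higher. For Npc1 the libraries were at 85.4, 96.6 and 121 CPM in liver and 39.4, 56.2 and 52.6 CPM in blood. Exons of Npc1 overlap those of Rmc1 on the other strand over 4.52% of their length, and Rmc1 had 7530 counts to the 6772 of Npc1. The libraries of Npc2 were at 72.1, 65.5 and 65.4 CPM in liver and 38.8, 29.2 and 35.7 CPM in blood.

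Smpd1, acid sphingomyelinase, was the lipid enzyme that was lower in liver, at 3.79, 4.46 and 5.79 CPM against 11.6, 8.76 and 9.67 CPM in blood. Although the groups did not overlap, the 2.14-fold difference (log2 -1.10 ± 0.32 SE, adjusted p = 0.0281) was not called without liver library 1 or 2, or blood library 1 (adjusted p 0.0702 to 0.089). Asah1, acid ceramidase, which acts one step after Smpd1, was at a log2 difference of -0.12 (adjusted p = 0.656), with overlapping groups.

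Of 6 membrane proteins and progranulin, 3 were higher and none was lower. Lamp1, a heavily glycosylated protein of the limiting membrane (chr8:13159161-13175338), was at 176, 199 and 173 CPM in liver and 97.5, 89.6 and 100.2 CPM in blood. The 1.91-fold difference had an adjusted p of 0.00347 (log2 0.93 ± 0.17 SE), and its promoter stretch is the one with 4 copies of the shorter motif. Lamp2, the related membrane protein, of which one isoform is the receptor of chaperone-mediated autophagy, overlapped between groups at a log2 difference of 0.12 (adjusted p = 0.716). Grn, progranulin, which is cut into granulins in the lysosome, was at 225, 210 and 232 CPM in liver and 114, 136 and 106 CPM in blood. It was 1.88-fold higher (log2 0.91 ± 0.18 SE, adjusted p = 0.00494). Mcoln1, a calcium channel of the lysosomal membrane, was at 35.5, 51.0 and 41.9 CPM in liver and 27.4, 15.3 and 26.4 CPM in blood. Its 1.86-fold difference (adjusted p = 0.031) was not called without liver library 2 or 3, or blood library 2 or 3 (adjusted p 0.0503 to 0.103). Scarb2, an integral protein of the lysosomal membrane, was at 160, 235 and 174 CPM in liver and 117, 145 and 120 CPM in blood. The groups did not overlap, at a log2 difference of 0.58 (adjusted p = 0.0558), or 0.563 with the replicate block (adjusted p = 0.0145). Laptm5, a lysosomal protein of blood cells, was at a log2 difference of 0.43 (adjusted p = 0.162).

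The 3 transcription factors differed in direction. Mitf was at 41.1, 40.7 and 36.3 CPM in liver and 12.3, 23.2 and 8.26 CPM in blood. Every liver library was above every blood library, and Mitf was 2.71-fold higher (log2 1.44 ± 0.35 SE, adjusted p = 0.0131), although not called without blood library 1 (adjusted p = 0.0547). Tfeb was at 55.2, 66.3 and 61.0 CPM in liver and 85.3, 121 and 93.5 CPM in blood. It was 1.64-fold lower in liver (log2 -0.72 ± 0.19 SE, adjusted p = 0.0209) with no overlap, and was not called without liver library 1 or blood library 2 (adjusted p 0.0601 to 0.0729). Tfe3 was at 89.9, 99.9 and 85.4 CPM in liver and 81.8, 87.3 and 78.6 CPM in blood, groups that overlapped (log2 0.15, adjusted p = 0.52). Per kilobase of exon, the ratio of Tfeb to Tfe3 was 1.00, 1.08 and 1.17 in liver and 1.7, 2.26 and 1.94 in blood. The ratio of Mitf to Tfe3 was 0.684, 0.608 and 0.636 in liver and 0.225, 0.398 and 0.157 in blood. Neither ratio overlapped between the groups, so the makeup of this family's transcripts differed while their summed level, at a ratio of 0.974, hardly did.

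Of the 16 V-ATPase genes 6 were higher and none was lower, with a median log2 difference of 0.396. The other 31 genes had 17 higher, 3 lower and a median of 0.909, a contrast between lists that was not tested. The summed level of the 16 V-ATPase genes was 2386, 3173 and 2058 CPM in liver and 1724, 2151 and 1636 CPM in blood. The lowest liver library was thus below the highest blood library. In the membrane sector V0, 2 of 6 genes were higher. Atp6v0c, the proteolipid that forms the rotating ring, was at 717, 865 and 492 CPM in liver and 208, 271 and 201 CPM in blood. The groups were far apart, at a 3.05-fold difference (log2 1.61 ± 0.25 SE, adjusted p = 0.00193). Per kilobase of exon it was the most abundant V-ATPase transcript in liver, at 204 CPM per kilobase against 66.9 in blood.

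Subunit d of V0 has 2 isoforms, Atp6v0d1, found in most cells, and Atp6v0d2, known from osteoclasts and macrophages. Atp6v0d2 (chr4:19876841-19922605) was at 3.92, 1.08 and 5.85 CPM in liver and 0.216, 0 and 0 CPM in blood. Its counts summed to 169 in liver and to 3 in blood, all of the latter in blood library 1, a ratio of 47.7 with an exact 95% counting interval of 16.1 to 234. None of its blood libraries reached the level of the filter on low counts, so it entered the test only through liver and had to differ; its adjusted p of 0.00596 is given as a description. Its fitted log2 difference of 5.45 is no bound, being 8.73 without blood library 1 and 4.83 without blood library 3. Its order among the 3 liver libraries was that of Clec4f, and also that of the glycosidase gene Glb1. The cause of this order was not tested. Atp6v0d1 was at 97.5, 109 and 84.8 CPM in liver and 60.8, 83.5 and 69.8 CPM in blood, without overlap but not called (log2 0.45, adjusted p = 0.106). Per kilobase of exon the ratio of Atp6v0d2 to Atp6v0d1 was 0.0265, 0.00655 and 0.0456 in liver, so the first isoform was a minor one in every library.

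Subunit a of V0, which carries the proton path, has several isoforms. Atp6v0a1 was at 139, 208 and 130 CPM in liver and 172, 259 and 185 CPM in blood, groups that overlapped (log2 -0.37, adjusted p = 0.271). Tcirg1, the a3 isoform of osteoclast and immune cell lysosomes and not one of the 47 genes, was at 185, 198 and 283 CPM in liver and 48.4, 66.9 and 74.0 CPM in blood. It was 3.52-fold higher in liver (log2 1.81 ± 0.24 SE, adjusted p = 0.000908). Per kilobase of exon the ratio of Atp6v0a1 to Tcirg1 was 0.527, 0.736 and 0.324 in liver and 2.5, 2.72 and 1.76 in blood. On that scale Tcirg1 was therefore the more abundant of the pair in every liver library and Atp6v0a1 in every blood library. In CPM, without the length, liver library 2 had more Atp6v0a1, at 208 against 198. The a2 isoform, Atp6v0a2, was at a log2 difference of -0.24 (adjusted p = 0.421). The remaining V0 genes, Atp6v0e and Atp6v0b, were at 0.30 (adjusted p = 0.366) and 0.05 (adjusted p = 0.846).

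**Figure D3:**
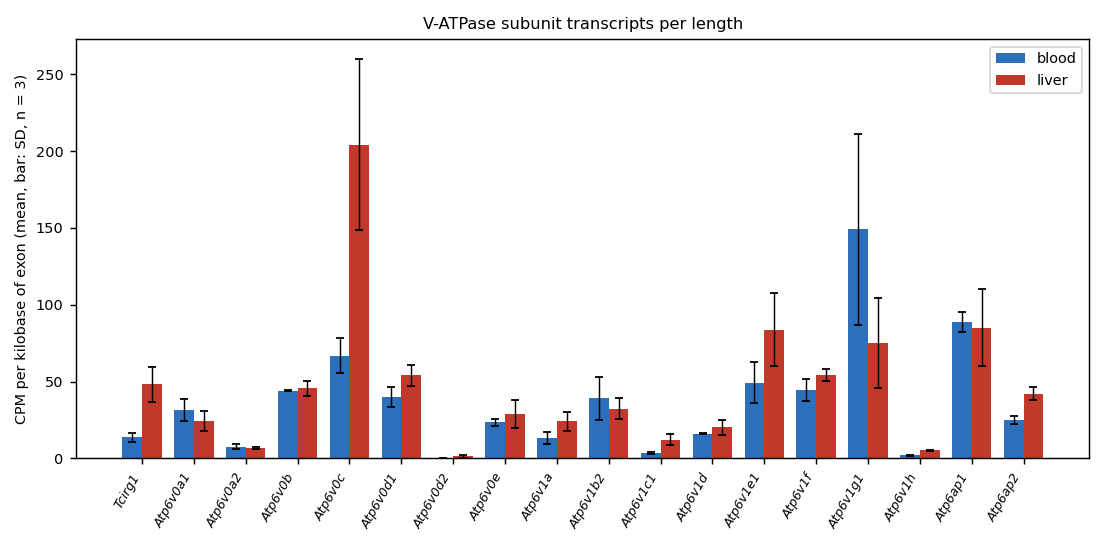
Mean CPM per kilobase of exon of 18 V-ATPase transcripts in blood and liver, with bars for the SD of 3 libraries each. Atp6v0c stands out in liver at 204 against 66.9, Tcirg1 and Atp6v0a1 change order between the groups, and Atp6v1g1 is higher in blood at 149 against 75.0.

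In the V1 sector 3 of 8 genes were higher in liver. Atp6v1c1, a subunit of the stalk that holds V1 and V0 together, was at 48.9, 85.5 and 73.1 CPM in liver and 17.2, 17.6 and 23.2 CPM in blood. The groups did not overlap, and it was 3.57-fold higher (log2 1.84 ± 0.26 SE, adjusted p = 0.00114). Atp6v1h, a regulatory subunit of V1, was at 47.2, 57.8 and 47.7 CPM in liver and 22.0, 18.8 and 18.1 CPM in blood. It was 2.59-fold higher (log2 1.37 ± 0.20 SE, adjusted p = 0.00151), with little spread in either group. Atp6v1a, the catalytic subunit (chr16:44085402-44139705), was at 107, 182 and 148 CPM in liver and 59.3, 107 and 80.2 CPM in blood. Liver library 1 and blood library 2 were nearly level, and the 1.78-fold difference (adjusted p = 0.0398) was not called without liver library 2 or 3, or blood library 1 or 3 (adjusted p 0.0838 to 0.151).

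Atp6v1e1 and Atp6v1g1, which form the peripheral stalks of the pump together, differed in opposite directions. Atp6v1e1 was at 296, 457 and 282 CPM in liver and 262, 195 and 152 CPM in blood, with no overlap (log2 0.77, adjusted p = 0.0516). Atp6v1g1 was at 74.9, 122 and 58.1 CPM in liver and 126, 250 and 130 CPM in blood, with every liver library below every blood library (log2 -0.99, adjusted p = 0.0588). Neither passed the test, and with the replicate block they were at 0.767 (adjusted p = 0.0307) and -0.981 (adjusted p = 0.0025). Atp6v1d, Atp6v1f and Atp6v1b2 had adjusted p-values of 0.22, 0.291 and 0.462 at log2 differences of 0.35, 0.28 and -0.28. Of 2 accessory proteins of the pump, Atp6ap2, the prorenin receptor, was at 98.0, 120 and 114 CPM in liver and 58.4, 69.1 and 69.8 CPM in blood. It was 1.68-fold higher (log2 0.75 ± 0.18 SE, adjusted p = 0.0118), except without blood library 1 (adjusted p = 0.0625). Atp6ap1 was at a log2 difference of -0.06 (adjusted p = 0.87), or 0.0265 with upper quartile scaling (adjusted p = 0.943).

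**Figure D4:**
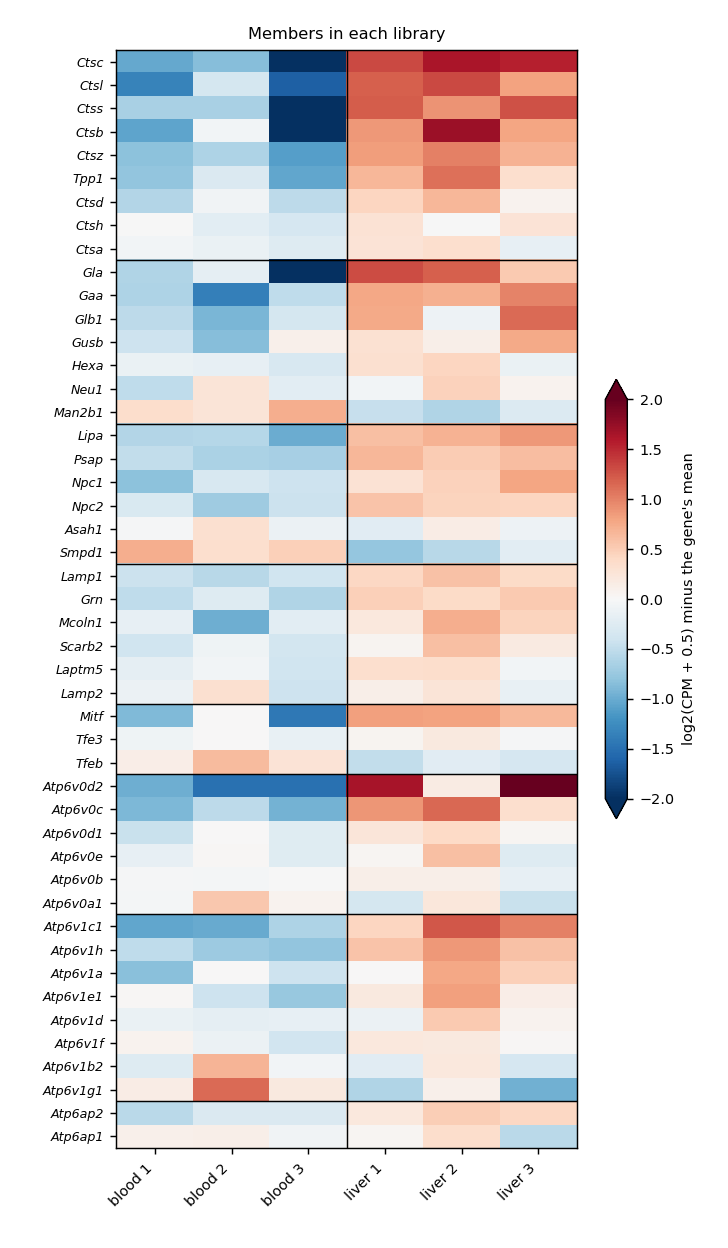
Each row is a gene and each column a library, coloured by log2(CPM + 0.5) minus the mean of the gene over the 6 libraries, with colours limited to ±2. Most protease rows at the top change colour between the groups, and among the liver libraries library 2 is the highest for 14 of the 16 V-ATPase rows.

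Of the 26 genes called, 17 were called without each library in turn. In all 18 alternative analyses 14 genes were called higher and 1, Man2b1, was called lower.

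Lysosomal genes outside the 47 came from 5 further lists, of which 98 of 111 genes were tested. Of the 98, 31 (31.6%) were higher in liver and 7 (7.14%) were lower, against 17.4% and 14.2% over all genes tested. Their median log2 difference was 0.211. Some of the 31 had fewer than 10 counts in 1 or more blood libraries, as Scpep1 did at 55, 20 and 4 counts. Those genes entered the test only because of the liver libraries, and their calls are descriptions. Without liver library 1 or blood library 2, 20 and 19 were called higher, and without liver library 2, 4 were called lower. Among other hydrolases 15 of 35 tested (42.9%) were higher and 2 (5.71%) were lower. Lgmn, the asparaginyl endopeptidase that processes cathepsins, was at 144, 100.3 and 191 CPM in liver and 17.1, 15.1 and 3.29 CPM in blood, a 12.3-fold difference (log2 3.62 ± 0.61 SE, adjusted p = 0.00542). Its liver libraries were all far above its blood libraries. Scpep1, Pld4 and Acp5 were higher by log2 3.19, 2.87 and 2.31. Scpep1 and Pld4 were at 4.16 and 3.72 without blood library 1, and were not called without blood library 2 (Scpep1, adjusted p = 0.0649) or without liver library 1 or 3 or blood library 2 (Pld4, adjusted p 0.0599 to 0.0945).

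Of 24 other membrane genes tested 6 (25%) were higher and 2 (8.33%) were lower, with a median log2 difference of 0.283. Cd63, a tetraspanin of lysosomes and azurophil granules, was 2.80-fold higher (adjusted p = 0.00133). Clcn7, the chloride exchanger of lysosomes, was at a log2 difference of 1.06, and Cd68 at 0.85; the latter was not called without any one of liver libraries 1, 2 and 3 and blood libraries 1 and 3 (adjusted p 0.0547 to 0.126). Tmem192, Slc15a3 and Tmem106b were at 1.56, 1.17 and -0.93. Tmem192 was not called without liver library 1 or 2, or blood library 1 or 2 (adjusted p 0.0727 to 0.0755), Slc15a3 without liver library 1, or blood library 2 or 3 (adjusted p 0.0623 to 0.0744), and Tmem106b without liver library 1 or 2, or blood library 2 (adjusted p 0.0689 to 0.0726). Of 9 further V-ATPase genes, Tcirg1 was the called one of 3 tested.

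Of 14 genes that deliver hydrolases to lysosomes, 3 (21.4%) were higher, 2 (14.3%) were lower and the median was -0.00214, shares close to the 17.4% and 14.2% over all genes tested. M6pr, a mannose 6-phosphate receptor that carries tagged hydrolases, was at 209, 304 and 234 CPM in liver and 71.9, 61.0 and 82.0 CPM in blood, 3.47-fold higher (log2 1.80 ± 0.21 SE, adjusted p = 0.000576). Sort1, sortilin, which carries hydrolases by another route, was at 98.6, 70.4 and 90.1 CPM in liver and 212, 216 and 226 CPM in blood, 2.52-fold lower in liver (log2 -1.34 ± 0.19 SE, adjusted p = 0.00116). Neither gene overlapped between the groups. The other mannose 6-phosphate receptor, Igf2r, was higher by log2 1.43 (adjusted p = 0.00599) and Ap1m1, an adaptor subunit, lower by log2 -1.09 (adjusted p = 0.00176). Sumf1, which activates sulfatases, was at 1.25 and was not called without liver library 1 or 3, or blood library 2 or 3 (adjusted p 0.0528 to 0.0738).

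Of 22 genes tested that control or belong to the Mitf and Tfeb family, 6 (27.3%) were higher and 1 (4.55%) was lower. Their median was 0.221. Tfec, the fourth member of the family, was at 3.00, 1.14 and 3.73 CPM in liver and 0.431, 0.350 and 0.134 CPM in blood (log2 3.08 ± 0.74 SE, adjusted p = 0.0123). Its blood libraries held 6, 4 and 2 counts, so it too entered the test only through liver, and its call is a description. Rragd and Rragc, GTPases that bring the family and mTORC1 to the lysosome, were higher by log2 2.61 (adjusted p = 0.00752) and 0.86 (adjusted p = 0.0101). Flcn and Fnip2, which act on those GTPases as a complex, were higher by 1.13 (adjusted p = 0.00179) and 1.77 (adjusted p = 0.00436). Tsc1, an inhibitor of mTORC1, was at 0.95 and was not called without liver library 2 or 3, or blood library 1 or 2 (adjusted p 0.0519 to 0.0607). The gene called lower was Ppp3r1, a calcineurin subunit, at -0.63, named after its value was seen.

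**Figure D5:**
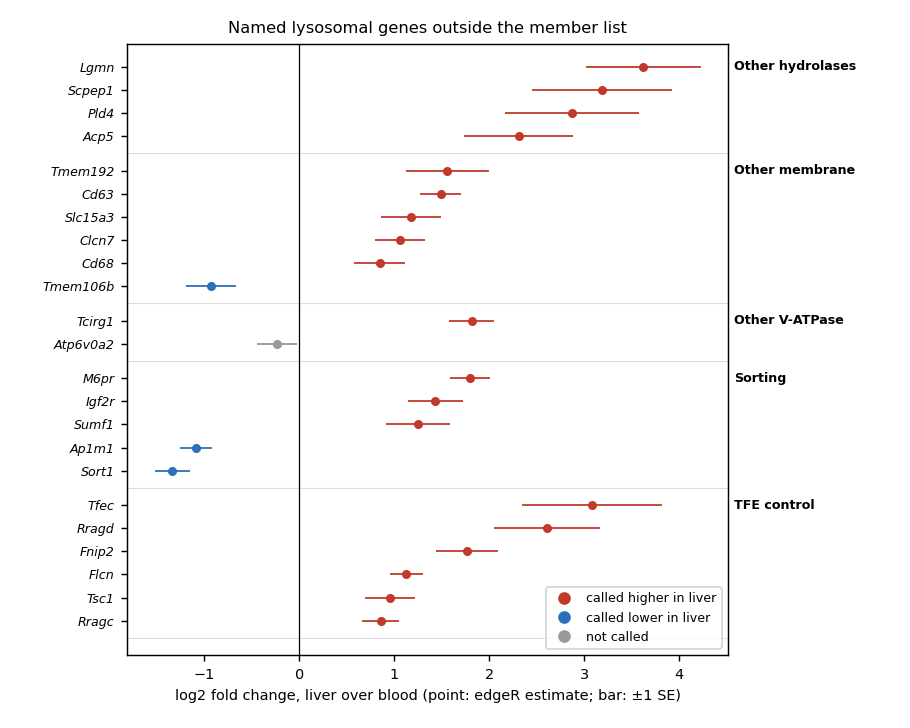
Log2 difference between liver and blood for the lysosomal genes named outside the 47, except Ppp3r1, by list, with points for the edgeR estimate and bars for ±1 SE. Lgmn lies furthest to the right at 3.62 and Sort1 furthest to the left at -1.34.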

How the data were processed

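Per the submitters' processing notes, which name FastQC 0.11.5, STAR, RSEM, limma and GRCm38, and per the file headers, the authors deposited RSEM expected counts per gene. Per the labels' protocols, the libraries were stranded total RNA from a low-input kit, read as paired ends. The sources used here do not give the strand setting of the counting. How reads were assigned where genes overlap on opposite strands is therefore not known. Exon sequence is shared with another gene by 13 of the 47 genes, and over at least 20% of the exons by 2. Ctsd overlaps Gm49369 on the same strand over 34.4%, at 843 counts against 110699. Ctsl overlaps Gm47123 on the opposite strand over 26.8%, at 45 counts.

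By identifier, 98.9% of 53090 rows matched GENCODE M21 (GRCm38), the source of coordinates and exon lengths. Of all values 7.43% were not whole, and expected counts were rounded. The filterByExpr filter of edgeR (count of 10, total of 15) was passed by all 47; Atp6v0d2 reached that level in 0 blood libraries and Glb1 in 2. The fit used TMM factors and the robust quasi-likelihood F test of edgeR 4.0.16 (R 4.3.3), liver against blood, two-sided, with Benjamini-Hochberg adjustment over all 13458 genes. SEs follow from the F statistic. The code was tested on simulated data. Same-numbered libraries deviated from their group means together (correlations 0.102, 0.247 and 0.109), at most a weak hint from the data, since no label pairs them. Liver library 3 and blood library 1 were as alike, at 0.101, and the other pairs of unlike number were at -0.213 to -0.0248. A fit with this number as a block is given where it changes a call. Beyond an n of 3 the labels do not tie libraries to separate mice, and p-values then reflect only the spread among these libraries, which may be technical. Within a group, libraries differed beyond counting noise (chi-square per degree of freedom 52.1 to 79.0).

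The genes, the further lists and the tests were chosen with earlier results of these data known. From each further list the text names up to 5 called genes, by size of change, if the groups do not overlap and 1 group averages 5 CPM or more, plus a set of fixed genes and defining markers; some of these genes are not reported here. Alternatives covered scaling, filters, DESeq2 1.42.0, limma 3.58.1 with voom, the block and each library left out. Proteins were not analysed here.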

Additional observations from a re-analysis of the deposited data

How the results depend on the processing

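Across 18 alternatives no named gene that was called changed direction. Of the 47 genes, 4 that were not called changed sign in at least 1 alternative, with log2 differences from -0.0854 to 0.322 for Lamp2, -0.286 to 0.152 for Atp6ap1, -0.00618 at the lowest for Atp6v0b and 0.0301 at the highest for Atp6v1b2. With each library left out in turn, 18 to 22 of the 47 genes were called higher (23 with all libraries) and 1 to 4 lower (3 with all libraries); of the other lysosomal genes 19 to 25 were called higher (31) and 4 to 6 lower (7). Without liver library 3 and blood library 1 together, 15 were called higher, 14 of them shared with the full analysis, and 1 lower; of the other lysosomal genes 18 were called higher and 4 lower. Fewer samples were used in these fits, and over all genes tested they called 1631 to 1993 higher (2336) and 1195 to 1626 lower (1916). With total counts and no scaling factors, 4 other lysosomal genes were called lower, the cause of which was not tested, and Smpd1 was not called. The remaining alternatives gave 23 to 27 genes called higher. With the replicate number as a block 26 were called higher and 4 lower, and of the other lysosomal genes 32 and 9; beyond Gusb, Scarb2, Atp6v1e1 and Atp6v1g1 the block changed no other call among the 47. With upper quartile scaling the median over all genes moved from 0.0413 to 0.128, and the share of calls that were higher from 54.9% to 61.1%. Total counts without scaling gave 60.8%. Low counts limit the precision for Atp6v0d2, Glb1, Smpd1 and Tfec. Preparation and tissue cannot be told apart in this design.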
